A study of Sus scrofa with 180 samples.

Results

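Zinc finger and Krüppel-like factor genes were followed in 2 muscles of the pig, the Longissimus (LM) of the back and the Semimembranosus (SM) of the ham. Members were all genes whose symbol begins with ZNF, ZFP, ZBTB or KLF in the lists of genes that the study found to differ between the muscles, without ZBTB16. The lists served only to pair probes with names. This gave 63 genes (50 ZNF, 3 ZFP, 6 ZBTB and 4 KLF) measured by 66 probes, of 3481 genes and 3967 probes named in the lists at hand and of 15198 probes on the array. All 66 probes passed the filter on dim spots. Because the lists hold genes that differed between the muscles of the same pigs, the difference of a member between LM and SM is given here as a description with no test. The list for SM was at hand only in part, without the entries with the smallest ratios, so the number of members on each side says nothing about the muscles.

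Each of 90 pigs gave 1 array of LM and 1 of SM, 180 arrays in all, and the labels give the number of the pig and its muscle. The animals were females and castrated males of 2 sire families from an intercross of pig sire lines, all of the normal genotype at the halothane and RN loci, and they were not treated. They were reared on the same farm and sampled soon after slaughter with a trocar, each muscle by its own operator. Related pigs are not wholly independent, and a muscle sample holds fibres together with vessels, blood, fat and connective tissue, so a change in the share of a cell type and a change in the RNA per cell cannot be told apart.

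Zinc finger proteins of the C2H2 class bind DNA through short loops held by a zinc ion, and many carry a KRAB domain, which recruits the corepressor TRIM28 and silencing enzymes to chromatin. ZBTB proteins join such fingers to a BTB domain, through which they pair with each other and recruit corepressors. Krüppel-like factors (KLF) use a small set of fingers at the C-terminal end to bind GC-rich promoters, and members of the family direct red cell, vessel and metabolic genes. Not all symbols of the ZNF and ZFP series are DNA-binding repressors, since some proteins so named bind RNA or belong to other complexes.

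The probes were 60 bases long. The first set is shown because these probes gave the largest differences on each side. Capitals mark each C among the first 15 bases, from the 5′ end.
ZNF146, first probe: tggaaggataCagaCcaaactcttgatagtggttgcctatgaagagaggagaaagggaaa
ZNF146, second probe: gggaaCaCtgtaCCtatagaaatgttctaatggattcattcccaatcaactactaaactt
ZBTB20: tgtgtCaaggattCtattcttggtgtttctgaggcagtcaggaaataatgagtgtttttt
ZBTB25: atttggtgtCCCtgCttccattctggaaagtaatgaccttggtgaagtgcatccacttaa

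The probes of the next set are shown because their values moved with an index of C-rich probes described below, except KLF2, which is set beside them and did not. Capitals mark the same.
KLF1: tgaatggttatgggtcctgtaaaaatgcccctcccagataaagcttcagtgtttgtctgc
KLF11: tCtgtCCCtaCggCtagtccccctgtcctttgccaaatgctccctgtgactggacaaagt
ZNF576: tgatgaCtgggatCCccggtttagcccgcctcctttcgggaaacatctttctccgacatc
ZNF467: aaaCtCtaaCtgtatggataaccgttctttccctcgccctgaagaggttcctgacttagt
KLF2: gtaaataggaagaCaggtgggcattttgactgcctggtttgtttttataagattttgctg

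The last sequence shows a probe that lies on a finger itself. Capitals are on the letters TGTGGNAA, which lie within a finger and code for cysteine, glycine and lysine.
ZNF768: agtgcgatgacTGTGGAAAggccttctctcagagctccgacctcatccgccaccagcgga
TGTGGNAA was found on either strand in 2 of the 66 member probes, those of ZNF768 and ZNF34, and in 225 (1.48%) of all 15198 probes. Finger-coding stretches are alike between many genes, and whether these probes also bound other transcripts was not tested.

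Values are processed signals on the log2 scale minus the median of the array, here called centred log2 signals, so 0 is the median probe and 1 step is a doubling of brightness. The brightness of a spot also depends on its probe, and a level is therefore given only as the place of the probe among the spots of its array, not as the abundance of its transcript. A spot is called dim when the scanner did not read it well above background, and such spots were left out of the means. Before centring, the member signal was higher in LM for 49 probes, and centring lowered the LM value relative to SM by 0.30 at the median over members. LM arrays lay on 21 slides scanned on 10 days and SM arrays on 14 other slides scanned on 5 other days, so the muscle, the slide and the scan day cannot be told apart. An index was made for each array from the mean of 215 probes with at least 8 C in the first 15 bases minus that of 3955 probes with at most 2, each value taken against its probe's mean. On the LM arrays it averaged -0.37 ± 0.34 (SD, n = 90), against 0.38 ± 0.31 (SD, n = 90) for SM.

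Members were higher in LM for 48 probes of 45 genes and higher in SM for 18 probes of 18 genes. In the fit across all probes, 83.5% of 10987 probes differed between the muscles, 35.7% higher in LM and 47.7% higher in SM, at an adjusted p of 0.05 or less. All 66 members were among them, in the direction of their list, which the choice of members fixed. The differences ran from 0.16 (ZNF800) to 2.31 (ZNF146) on the log2 scale in LM, with a median of 0.59, and from -0.27 (ZNF696) to -0.83 (ZBTB25) in SM, with a median of -0.44. The lists were cut at an adjusted p, and the SM list at hand also lacks its smallest ratios. The smallest difference and the median in SM are therefore not set against those in LM. The member whose difference was smallest against its SE was ZNF385B (-0.42 ± 0.14). The values just outside the threshold were not named in the lists at hand. The ratio of the geometric means exceeded 1.5 for 25 probes higher in LM and for 4 higher in SM, and it exceeded 2 for 8, all higher in LM. The difference exceeded the SD of the same difference over pigs for 38 of the 66 probes. These counts by ratio and by SD were not made over all probes, so they do not set the members apart from other genes.

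**Figure D1:**
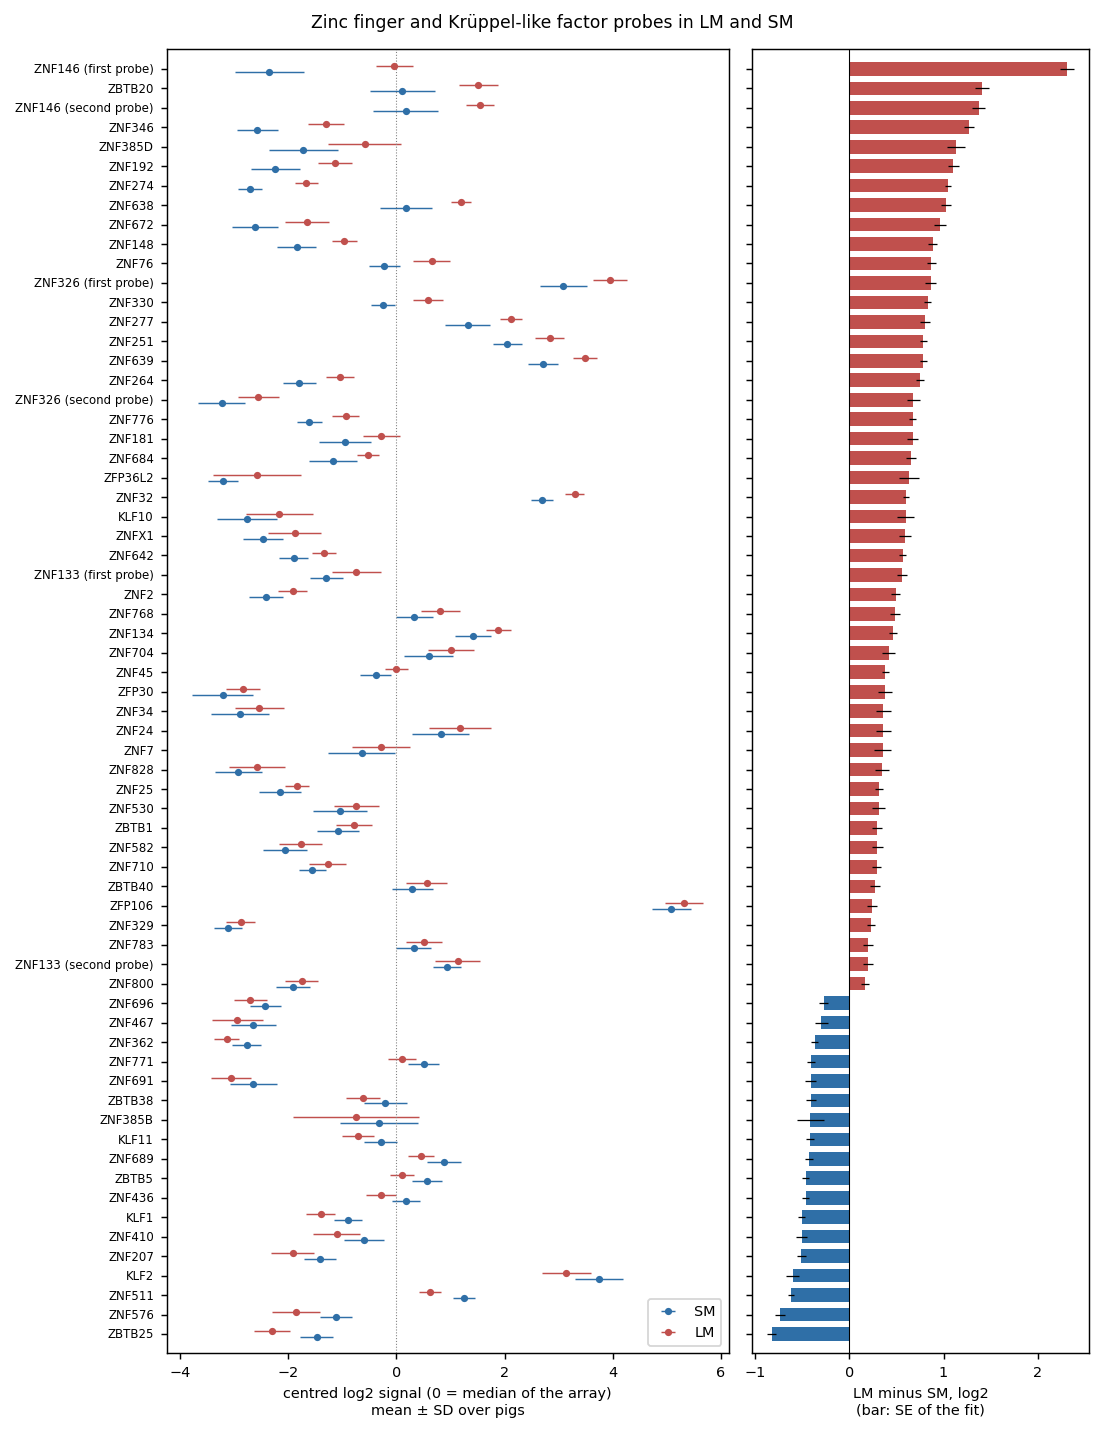
Left, the centred log2 signal of the 66 member probes in LM (red) and SM (blue), as mean ± SD over pigs, with 0 the median of the array. Right, the difference LM minus SM on the log2 scale, with the SE of the fit. Probes are ordered by the difference, from 2.31 for the first probe of ZNF146 to -0.83 for ZBTB25, and the SD bars of the muscles overlap in most of them.

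Most members were measured by probes below the median of their array, 43 of 66 in LM and 44 in SM. ZNF76 and ZNF330 lay above the array median in LM and below it in SM, while ZNF436 lay above it in SM alone. No spot of a member was saturated.

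ZNF146, also called OZF, is a protein made almost wholly of fingers, and it gave the largest difference among the members. Its first probe ranged from -0.74 to 0.75 over 90 pigs in LM, with a median of 0.01, and from -3.71 to -1.06 over 80 pigs in SM, with a median of -2.50. The muscles did not overlap in this probe, which was so for no other member. How many of all probes kept were apart in this way was not counted, so nothing is read from this. LM exceeded SM by 2.31 ± 0.08 (SE), a ratio of 4.96, and was higher in 80 of 80 pigs. The other 10 SM spots were dim, and with failed spots kept the difference was 2.51, while normexp background correction gave 1.52. The second probe of ZNF146, 278 bases away on the same contig, ranged from 0.92 to 2.19 in LM, with a median of 1.54, and from -1.63 to 1.26 in SM, with a median of 0.15. Here the difference was 1.38 ± 0.07 (SE), with LM higher in 89 of 90 pigs and a small overlap of the muscles. Both probes thus showed the higher level in LM, with unequal size.

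ZNF346, or JAZ, binds double-stranded RNA. It ranged from -1.96 to -0.56 in LM, with a median of -1.27, and from -3.42 to -1.23 in SM, with a median of -2.60. The difference was 1.28 ± 0.05 (SE), and LM was higher in all 87 pigs with a usable spot in both muscles, although the ranges overlapped. Normexp correction lowered it to 0.68. ZNF385D, a finger protein of the family that also holds ZNF385B, ranged from -2.03 to 1.24 in LM (median -0.50) and from -3.35 to -0.41 in SM (median -1.72). It was 1.13 ± 0.10 (SE) higher in LM, in 85 of 90 pigs. Its close relative ZNF385B was on the other side, lower in LM by -0.42 ± 0.14 (SE), with SM higher in only 56 of 90 pigs. ZNF385B spread from -3.14 to 1.66 in LM (median -0.57) and from -2.61 to 1.17 in SM (median -0.23), so the muscles overlapped almost fully.

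Of the BTB proteins, ZBTB20, ZBTB1 and ZBTB40 were higher in LM and ZBTB25, ZBTB38 and ZBTB5 were higher in SM. ZBTB20, a repressor known for its part in liver and brain, ranged from 0.79 to 2.59 in LM (median 1.503) and from -0.9997 to 1.72 in SM (median 0.01). Its difference was 1.41 ± 0.07 (SE), with LM higher in 88 of 90 pigs and an overlap in the upper SM values. ZBTB1, which lymphoid cells need to develop, ranged from -1.62 to -0.09 in LM (median -0.77) and from -1.99 to -0.16 in SM (median -1.05), a difference of 0.30 ± 0.05 (SE) in a pair of ranges that overlapped widely. ZBTB40 had medians of 0.58 in LM, over a range of -0.41 to 1.41, and 0.32 in SM, over -0.65 to 1.17, and differed by 0.27 ± 0.06 (SE).

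ZBTB25 gave the largest difference of the members higher in SM. It ranged from -3.10 to -1.11 in LM (median -2.35) and from -2.28 to -0.83 in SM (median -1.47), and the difference of -0.83 ± 0.05 (SE) had SM higher in 88 of 90 pigs. ZBTB38, which binds methylated DNA, had medians of -0.60 in LM (-1.60 to 0.19) and -0.26 in SM (-1.09 to 0.86), with a difference of -0.41 ± 0.05 (SE) and SM higher in 72 of 89 pigs. ZBTB5 had medians of 0.12 in LM (-0.53 to 0.68) and 0.57 in SM (-0.06 to 1.32). Its difference was -0.46 ± 0.04 (SE), and 81 of 90 pigs had the higher value in SM. The ranges of the muscles overlapped in each of the 6 BTB genes.

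Among the Krüppel-like factors, KLF2, KLF1 and KLF11 were higher in SM and KLF10 was higher in LM. KLF2, which flow induces in the endothelium, ranged from 2.05 to 4.14 in LM (median 3.12) and from 2.59 to 4.93 in SM (median 3.73). The difference was -0.60 ± 0.07 (SE), a ratio of 1.52, and SM was higher in 70 of 90 pigs. The endothelial markers with a named probe (ENG, CDH5, VWF and NOS3, 4 of 9 fixed markers) were all higher in SM, in 5 of 5 probes with a median of -0.57 and a range of -0.66 to -0.34. The lists that named these probes were chosen on the muscle difference too, and the part of vessels in the level of KLF2 was not tested.

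KLF1, the erythroid member of the family, ranged from -1.99 to -0.68 in LM (median -1.40) and from -1.56 to -0.12 in SM (median -0.88). The difference was -0.51 ± 0.04 (SE), and SM was higher in 82 of 88 pigs with overlapping ranges. Of 7 erythroid markers only HBA2, the alpha globin gene, had a named probe, and its 3 probes were higher in SM, with differences of -0.46 to -1.28. With the C-rich index as a covariate the 3 HBA2 differences were -0.14, -0.34 and -0.25, and that of KLF1 was -0.07. The HBA2 probes with -0.14 and -0.34 have 9 C in the first 15 bases. They are among the C-rich probes that make the index, so their loss is in part built in. The part of blood in the level of KLF1 was not tested.

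KLF11 and KLF10 are factors induced by TGF-beta that repress growth genes. KLF11 ranged from -1.35 to 0.34 in LM (median -0.71) and from -0.93 to 0.43 in SM (median -0.34), and differed by -0.42 ± 0.05 (SE) with SM higher in 74 of 85 pigs. KLF10 went the other way: it ranged from -3.36 to -0.64 in LM (median -2.18) and from -3.95 to -1.52 in SM (median -2.75). The difference was 0.60 ± 0.09 (SE), LM was higher in 58 of 81 pigs, and 9 SM spots were dim against 0 in LM. It was 0.19 with normexp correction and 0.35 with the C-rich index as a covariate.

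ZNF576 followed ZBTB25 among the probes higher in SM. It ranged from -2.96 to -0.80 in LM (median -1.86) and from -1.97 to -0.25 in SM (median -1.11), and the difference was -0.74 ± 0.06 (SE), with SM higher in 79 of 86 pigs and overlapping ranges. Next was ZNF511, from -0.11 to 0.99 in LM (median 0.64) and from 0.61 to 1.80 in SM (median 1.25), which was lower in LM by -0.62 ± 0.03 (SE). SM was higher in 89 of 90 pigs for ZNF511, more evenly than in any other member higher in SM, and the ranges overlapped at their ends. ZNF207 (BuGZ), a protein of the mitotic spindle and of splicing, had medians of -1.89 in LM (-2.96 to -1.14) and -1.38 in SM (-2.29 to -0.76). Its difference was -0.51 ± 0.05 (SE), and ZNF410, which activates the chromatin remodeller gene CHD4, also differed by -0.51.

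**Figure D2:**
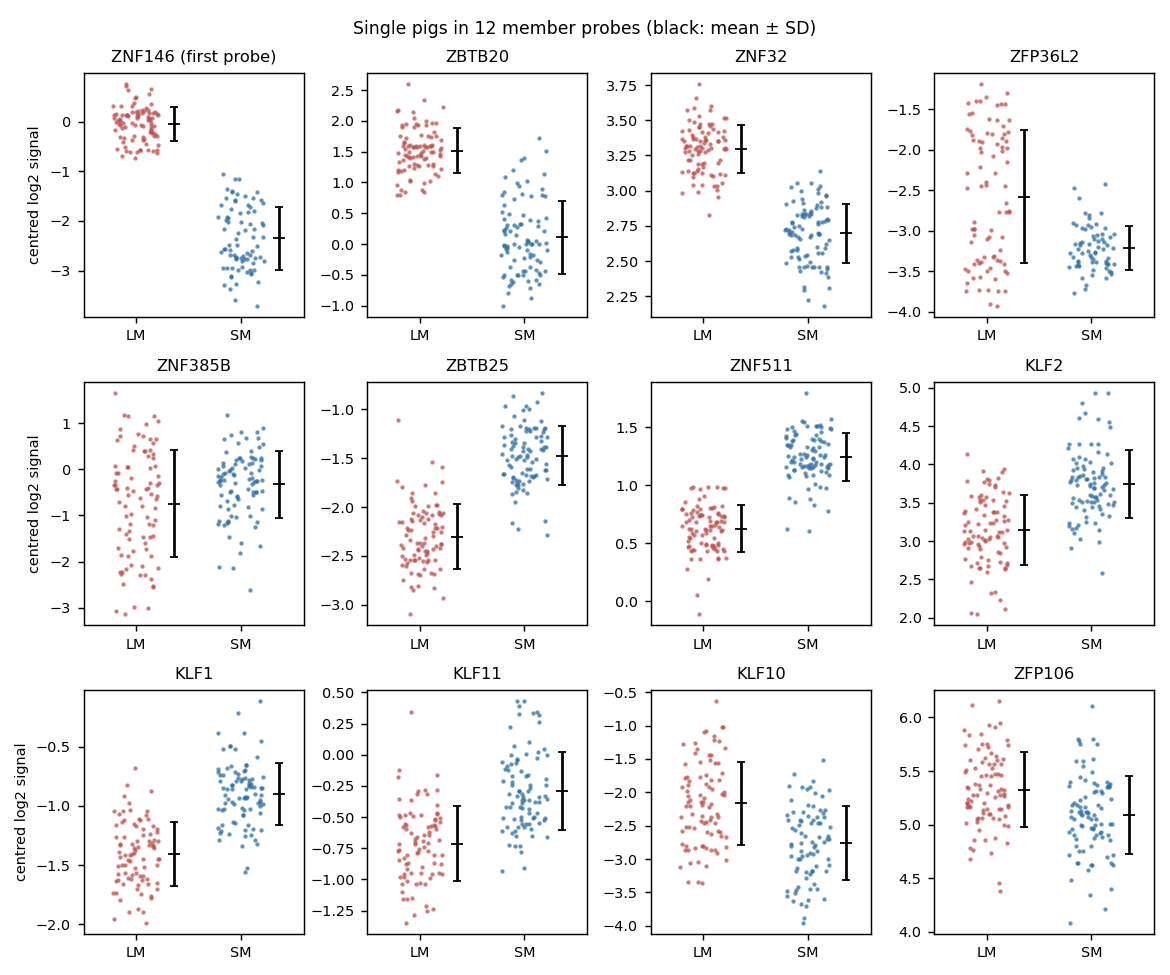
Centred log2 signal of single pigs (dots) in 12 member probes, with the mean and SD of each muscle in black, LM in red and SM in blue. The muscles are apart in the first probe of ZNF146, nearly apart in ZNF32 and ZNF511, and overlap widely in ZNF385B, KLF10 and ZFP106, while ZFP36L2 is spread over -3.92 to -1.19 in LM against -3.76 to -2.43 in SM.

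The remaining genes higher in LM fell into 3 sizes. Between 0.75 and 1.10 were ZNF192 (ZKSCAN8), ZNF274 (which brings the histone methyltransferase SETDB1 to its sites), ZNF638 (a factor of silencing and splicing), ZNF672, ZNF148 (which binds GC-rich promoters), ZNF76, ZNF330 (a nucleolar protein), ZNF277, ZNF251, ZNF639 and ZNF264. LM was higher in 87 of 87 pigs for ZNF274, in 89 of 89 for ZNF638 and in 89 of 89 for ZNF148. Between 0.47 and 0.67 were ZNF776, ZNF181, ZNF684, ZNF32, ZNFX1 (an antiviral helicase-like protein), ZNF642, ZNF2, ZNF768 and ZNF134. Among these ZNF32 was higher in LM in all 90 pigs although its ratio was only 1.52, from 2.82 to 3.76 in LM against 2.18 to 3.14 in SM. At 0.42 and below were ZNF704, ZNF45, ZNF34, ZNF24, ZNF7, ZNF828 (CHAMP1, a protein of the kinetochore), ZNF25, ZNF530, ZNF582, ZNF710, ZNF329, ZNF783 and ZNF800. With normexp correction ZNF34, ZNF828 and ZNF329 turned to -0.10, -0.020 and -0.058. The remaining genes higher in SM, between -0.27 and -0.46, were ZNF436, ZNF689, ZNF691, ZNF771, ZNF362, ZNF467 and ZNF696. In all, 6 probes of the 66 went the same way in every pig and 20 did so in at least 95% of the pigs. The same counts were not made over all probes, and members were chosen on this difference, so nothing is read from them.

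Several of these genes were also set apart by their spread, their dim spots or the likeness of the muscles of a pig. ZNF638 had medians of 1.21 in LM (0.71 to 1.58) and 0.22 in SM (-1.03 to 1.21), a difference of 1.03 ± 0.05 (SE) with LM higher in 89 of 89 pigs. The SM range reached far below that of LM. ZNF24 had medians of 1.08 in LM (0.09 to 2.43) and 0.75 in SM (-0.16 to 2.20), a difference of 0.36 ± 0.08 (SE) with LM higher in 61 of 90 pigs. ZNF7 had medians of -0.34 in LM (-1.13 to 0.79) and -0.79 in SM (-1.90 to 0.65), a difference of 0.35 ± 0.09 (SE) with LM higher in 62 of 89 pigs. Both genes overlapped almost fully between the muscles. ZNF776 had medians of -0.96 in LM (-1.42 to -0.20) and -1.62 in SM (-2.33 to -1.16), a difference of 0.67 ± 0.04 (SE) with LM higher in 88 of 90 pigs. Its difference was 0.38 with normexp correction. The ZNF362 probe had medians of -3.14 in LM (-3.61 to -2.58) and -2.76 in SM (-3.29 to -2.13), a difference of -0.37 ± 0.04 (SE) with SM higher in 71 of 85 pigs. In these genes the upper part of the lower muscle lay within the range of the other. The ZNF329 probe had medians of -2.88 in LM (-3.63 to -2.32) and -3.13 in SM (-3.59 to -2.47), a difference of 0.23 ± 0.04 (SE) with LM higher in 43 of 59 pigs. The ZNF467 probe had medians of -3.04 in LM (-3.77 to -1.93) and -2.67 in SM (-3.49 to -1.34), a difference of -0.30 ± 0.07 (SE) with SM higher in 52 of 67 pigs. The ZNF828 probe had medians of -2.58 in LM (-3.58 to -1.37) and -2.9996 in SM (-3.53 to -1.61), a difference of 0.35 ± 0.07 (SE) with LM higher in 48 of 75 pigs. These 3 probes had dim spots in both muscles, which their means leave out, and their ranges overlapped widely.

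The ZFP genes were all higher in LM. ZFP106, an RNA-binding protein that motor neurons and muscle need, had medians of 5.29 in LM (4.38 to 6.15) and 5.09 in SM (4.09 to 6.11), a difference of 0.24 ± 0.05 (SE) with LM higher in 63 of 90 pigs. ZFP30, a KRAB protein, had medians of -2.83 in LM (-3.66 to -2.29) and -3.36 in SM (-3.95 to -1.76) and differed by 0.38 ± 0.08 (SE). ZFP36L2, whose CCCH fingers bind AU-rich messages and lead to their decay, had medians of -2.57 in LM (-3.92 to -1.19) and -3.24 in SM (-3.76 to -2.43). Its difference was 0.63 ± 0.10 (SE, which leaves out the grouping by scan day given below), with LM higher in 44 of 65 pigs. Normexp correction lowered it to 0.12, and that of ZFP30 to 0.0050. Over all members this correction lowered the difference more than 1.5 times, or turned it, in 26 probes, all higher in LM and all below the median of the array there.

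The level of ZFP36L2 in LM followed the scan day. In LM, 90.9% of its variance lay between slides and 84.0% between scan days, against 15.9% and 2.63% in SM. Over all probes kept the median share in LM was 38.0% between slides and 23.4% between scan days. On the scan days numbered 2 to 6 the LM means lay between -2.45 and -1.50, and on the other 5 they lay between -3.44 and -3.02, near the SM means of -3.24 to -3.10. ZNF828 showed the same pattern, with 77.3% of its LM variance between slides and 69.8% between scan days, and with means of -2.50 to -1.94 on days 2 to 6 and -3.16 to -2.85 on the others. In ZFP36L2 the LM means of days 1 and 7 to 10 were thus near those of SM. The SM means of ZNF828 ran from -3.15 to -2.51, so the highest of them was near LM day 6, with -2.50. Values near -3 are close to background, and the dim spots of both probes were left out. Next in the share between slides in LM were ZNF251 with 71.0% and ZNF710 with 69.5%. Whether the slides, the scan days or the pigs placed on them underlie this was not tested.

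**Figure D3:**
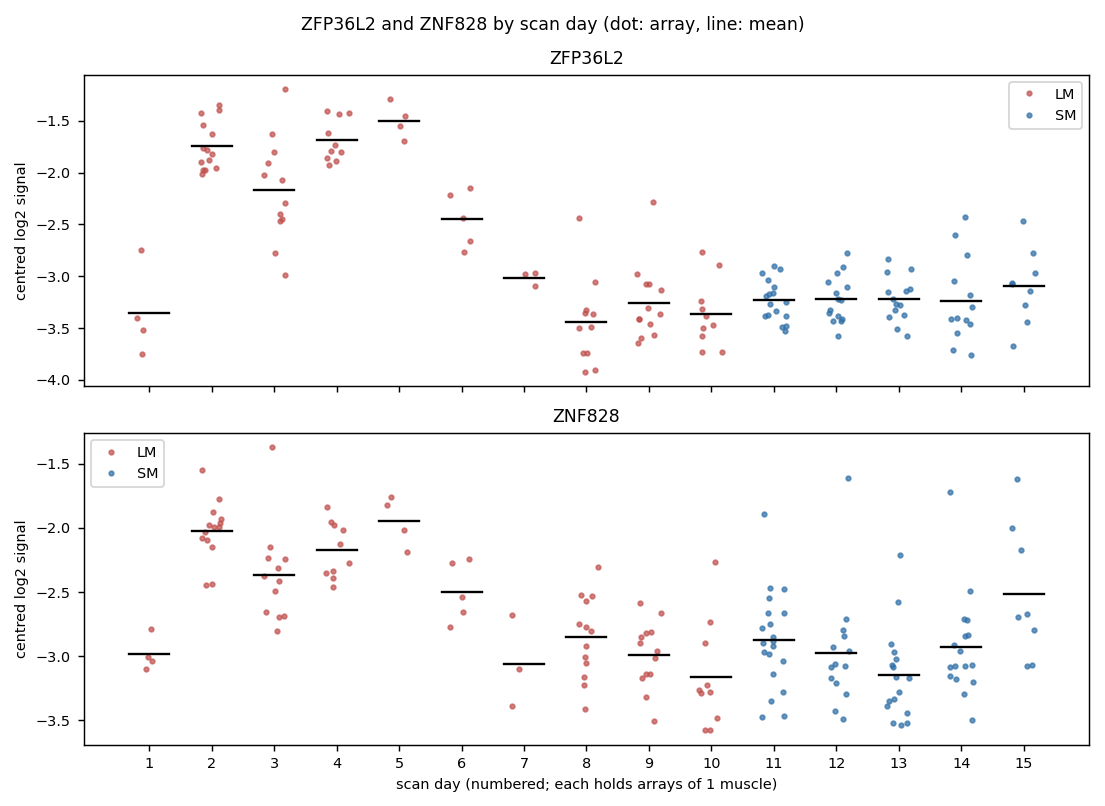
Centred log2 signal of ZFP36L2 (top) and ZNF828 (bottom) on single arrays (dots), by numbered scan day, with the mean of each day as a line, LM in red (days 1 to 10) and SM in blue (days 11 to 15). ZFP36L2 had daily means of -2.45 to -1.50 on days 2 to 6 and of at most -3.02 on the other LM days, and ZNF828 moved with it.

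Dim spots were few and lay mostly in SM. In LM 44 spots (0.741%) of the members were dim and in SM 190 (3.20%), against 1.44% and 2.97% over all probes kept. No dim spot was seen in either muscle for 46 member probes, 15 probes had more of them in SM and 4 had more in LM. The largest shares in SM were 45.6% for ZFP30, 31.1% for ZNF329, 30.0% for the second probe of ZNF326, 24.4% for ZFP36L2 and 15.6% for ZNF828. In LM the corresponding shares were 3.33%, 5.56%, 2.22%, 4.44% and 2.22%. The largest share in LM was that of ZNF467, 18.9% against 6.67% in SM. With dim spots kept, the differences of ZFP30 and the second ZNF326 probe grew from 0.38 to 0.82 and from 0.68 to 0.93. By a weaker criterion, a spot positive and significant over background, the members failed in 3 spots in all, 1 each of ZNF146, ZFP30 and ZNF7.

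The C-rich index took up the muscle difference of a few members. Within the muscles, ZNF576 correlated with the index at r = 0.82 in LM and 0.78 in SM, KLF1 at 0.72 and 0.63, ZNF467 at 0.74 and 0.37, and KLF11 at 0.46 and 0.66. The medians over all probes kept were -0.08 in LM and 0.02 in SM. KLF1, ZNF576 and ZNF467 are not C-rich in the first 15 bases, with 0, 3 and 3 C. With the index as a covariate the difference of ZNF576 went from -0.74 to -0.01 and that of KLF11 from -0.42 to -0.01, while ZNF467 turned from -0.30 to 0.32. KLF2 had r = 0.01 with the index in both muscles and kept its difference, at -0.60. ZBTB25, with -0.60, and the first probe of ZNF146, with 2.04, also kept most of theirs. In 10 of the 66 probes less than 50% of the difference was left or its sign turned, the others being ZNF7, ZNF828, ZNF25, ZBTB1, ZNF800 and ZNF771. The index differed between the muscles and so cannot be told apart from them.

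**Figure D4:**
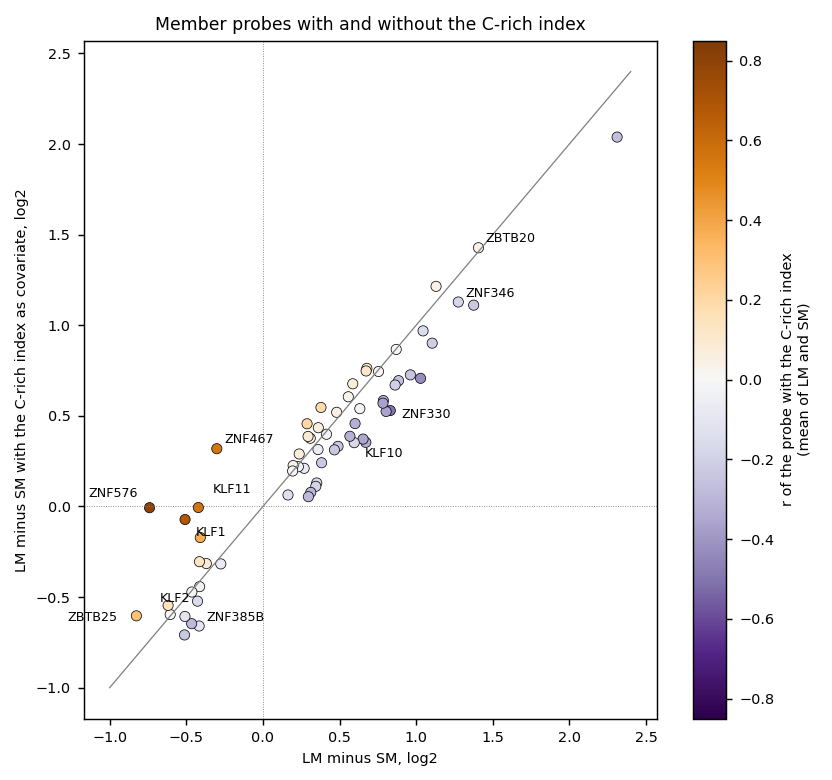
Difference LM minus SM of the 66 member probes on the log2 scale, without (x) and with (y) the C-rich index as a covariate, coloured by the mean of the 2 within-muscle correlations of the probe with the index. Most probes lie near the line of equal values, whereas ZNF576, KLF1 and KLF11 fall to about 0 and ZNF467 changes sign.

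For 3 genes with a pair of probes, agreement across the pigs of a muscle could be tested, which the choice of members did not use. Two-sided permutation tests with 100000 permutations were adjusted over the 8 comparisons, those of the pair for ZNF330 below included. The probes of ZNF133, 111 bases apart on their contig, correlated at r = 0.91 in LM (rho = 0.86, n = 89) and 0.81 in SM (rho = 0.82, n = 90). Those of ZNF146 correlated at r = 0.84 in LM (rho = 0.80, n = 90) and 0.79 in SM (rho = 0.77, n = 80). In both genes the permutation p was 1e-05, the smallest possible, and the adjusted p was 1.33e-05. The probes of ZNF326, a protein that couples splicing to transcription, lie on different contigs and correlated less, at r = 0.45 in LM (rho = 0.50, n = 88, permutation p = 2e-05, adjusted p = 2.29e-05) and 0.47 in SM (rho = 0.45, n = 63, permutation p = 0.00011, adjusted p = 0.00011).

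Leaving out the 2 pigs farthest from the median changed r in ZNF133, ZNF146 and ZNF326 to values between 0.47 and 0.90, and centring each slide gave 0.46 to 0.89. The probes of a gene kept their direction but not their size. ZNF133 differed by 0.56 ± 0.06 (SE) in the first probe, with medians of -0.85 in LM (-1.57 to 0.35) and -1.26 in SM (-2.13 to -0.75). In the second probe the difference was 0.19 ± 0.05 (SE), with medians of 1.01 (0.37 to 2.02) and 0.93 (0.26 to 1.48), and LM was higher in only 56 of 90 pigs. ZNF326 differed by 0.86 ± 0.06 (SE) in the first probe, with medians of 3.92 in LM (3.25 to 4.61) and 3.04 in SM (2.15 to 4.39), and by 0.68 ± 0.07 (SE) in the second, with medians of -2.58 (-3.77 to -1.69) and -3.22 (-4.17 to -1.88).

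ZNF330 had a further probe on its contig, 150 bases away, to which the lists gave no name. It was picked after its values had been seen. Across pigs it correlated with the named probe at r = 0.89 in LM (rho = 0.88, n = 89) and 0.66 in SM (rho = 0.69, n = 90), each with a permutation p of 1e-05, the smallest possible. The named probe was higher in LM by 0.83 ± 0.04 (SE), in 89 of 90 pigs, and the unnamed one by 0.24 ± 0.03 (SE), in 74 of 89 pigs.

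The spread between pigs was tested next, as the distance of each value from the median of its muscle, with limma and Benjamini-Hochberg adjustment over all probes. It differed in 14.5% of 10987 probes, wider in LM in 5.62% and wider in SM in 8.91%. Of the 66 members 6 (9.09%) were wider in LM and 13 (19.7%) wider in SM. Wider in SM were both probes of ZNF146 and those of ZNF638, ZBTB20, ZNF684, ZNF277, ZNF181, ZNF192, ZNF25, ZNF148, ZNF134, ZNF45 and ZNF689. The mean distance of the first ZNF146 probe was 0.54 in SM and 0.27 in LM (difference -0.27 ± 0.04 (SE), adjusted p = 4.05e-07). The second ZNF146 probe gave 0.47 and 0.21 (-0.27 ± 0.04, adjusted p = 1.03e-07). ZNF638 gave 0.40 and 0.15 (-0.25 ± 0.03, adjusted p = 3.51e-11). Of these 13 probes all but that of ZNF689 had the higher mean in LM, as had 48 of the 66 members by the choice of the lists.

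Wider in LM were ZFP36L2, ZNF385B, ZNF576, ZNF330 and both probes of ZNF133, of which ZNF385B and ZNF576 were higher in SM and the others in LM. ZFP36L2 had a mean distance of 0.74 in LM and 0.22 in SM (0.52 ± 0.04, adjusted p = 5.8e-20). This p takes the arrays as independent, although the LM values differed between scan days as given above. The dim SM spots of ZFP36L2 were also left out. The part of either in its spread was not tested. ZNF385B had 0.97 in LM and 0.55 in SM (0.42 ± 0.09, adjusted p = 6.24e-05). ZNF576 had 0.35 in LM and 0.23 in SM (0.12 ± 0.03, adjusted p = 0.00735), and with the C-rich index as a covariate its difference of 0.04 did not pass the test. With normexp background correction 6 member probes were wider in SM in place of 13, and the first probe of ZNF146 was no longer among them. With scan day as a random block 10 members were wider in SM and 4 in LM, and with slide as a random block 13 and 5. Among the 58 member probes with under 10% failing spots 12 were wider in SM and 5 in LM. The limit is that slides and muscles coincide, so spread between slides counts as spread between pigs.

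Whether a pig with a high level in LM also had one in SM was tested for each probe across pigs with 100000 permutations, adjusted over 10963 probes. No member was called, against 1.34% of all probes with r above 0 and 0 probes with r below 0. At an unadjusted permutation p below 0.05 there were 12 of 66 member probes, all with r above 0, against 13.1% of all probes. Over the members r ran from -0.18 to 0.35 with a median of 0.11, and over all probes the median was 0.07. ZNF7 had the highest value, r = 0.35 (rho = 0.27, n = 89, permutation p = 0.0008, adjusted p = 0.0538). ZNF385B followed with r = 0.31 (rho = 0.24, n = 90, adjusted p = 0.0977) and ZNF24 with r = 0.29 (rho = 0.28, n = 90, adjusted p = 0.135). Without the 2 pigs farthest from the median these were 0.34, 0.30 and 0.30. When each slide was centred they were 0.02 for ZNF7, 0.22 for ZNF385B and -0.03 for ZNF24. The lowest values were -0.18 for ZNF828 (rho = -0.18, n = 75, adjusted p = 0.526), -0.18 for ZNF776 (rho = -0.14, n = 90, adjusted p = 0.479) and -0.17 for ZNF362 (rho = -0.19, n = 85, adjusted p = 0.506). With each slide centred they were 0.01, -0.01 and -0.04. ZNF7 thus missed the threshold narrowly and lost its likeness between the muscles within slides.

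Within a muscle some members moved together from pig to pig, which is given as a description, since all pairs share the same arrays. Of 2145 pairs, r was above 0.5 in 34 (1.59%) in LM and in 60 (2.80%) in SM, against 1.53% and 1.65% of all pairs of probes kept. The highest in SM between different genes was that of ZNF181 with ZNF684, 0.88 against 0.47 in LM. The second probe of ZNF146 reached 0.82 with ZNF684 and 0.79 with ZNF181 in SM, where LM had 0.02 and 0.34. ZNF638 with ZNF277 gave 0.78 in SM and 0.18 in LM, and ZNF277 with ZNF25 gave 0.77 and 0.25. These are genes with the wider spread in SM named above. Among those 13 probes the median r over 78 pairs was 0.40 in SM and 0.17 in LM, against 0.05 and 0.04 over all 2145 pairs of members. The 13 probes, chosen here for their spread in SM, include both probes of ZNF146, and with the C-rich index taken out their median in SM was 0.35. ZNF511 ran against several of them in SM, at -0.61 with ZNF638 and -0.58 with ZNF277, against -0.04 and 0.04 in LM.

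A second set stood out in LM, where ZNF576 gave 0.81 with KLF1 and 0.84 with ZNF467, and KLF1 gave 0.72 with ZNF467. In SM they gave 0.72, 0.61 and 0.64. With the C-rich index taken out the 3 pairs gave, in the same order, 0.53, 0.61 and 0.38 in LM and 0.51, 0.63 and 0.57 in SM. ZFP36L2 and ZNF828, which followed the scan day, correlated at 0.78 in LM and at -0.001 in SM. ZNF691, ZNF689 and ZBTB5, all higher in SM, gave 0.65 to 0.70 in SM and 0.17 to 0.25 in LM. ZFP30 with ZNF34 gave 0.74 in SM and -0.01 in LM. The SM value of this pair rests on fewer pigs, since ZFP30 had the largest share of dim SM spots and ZNF34 had 8.

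**Figure D5:**
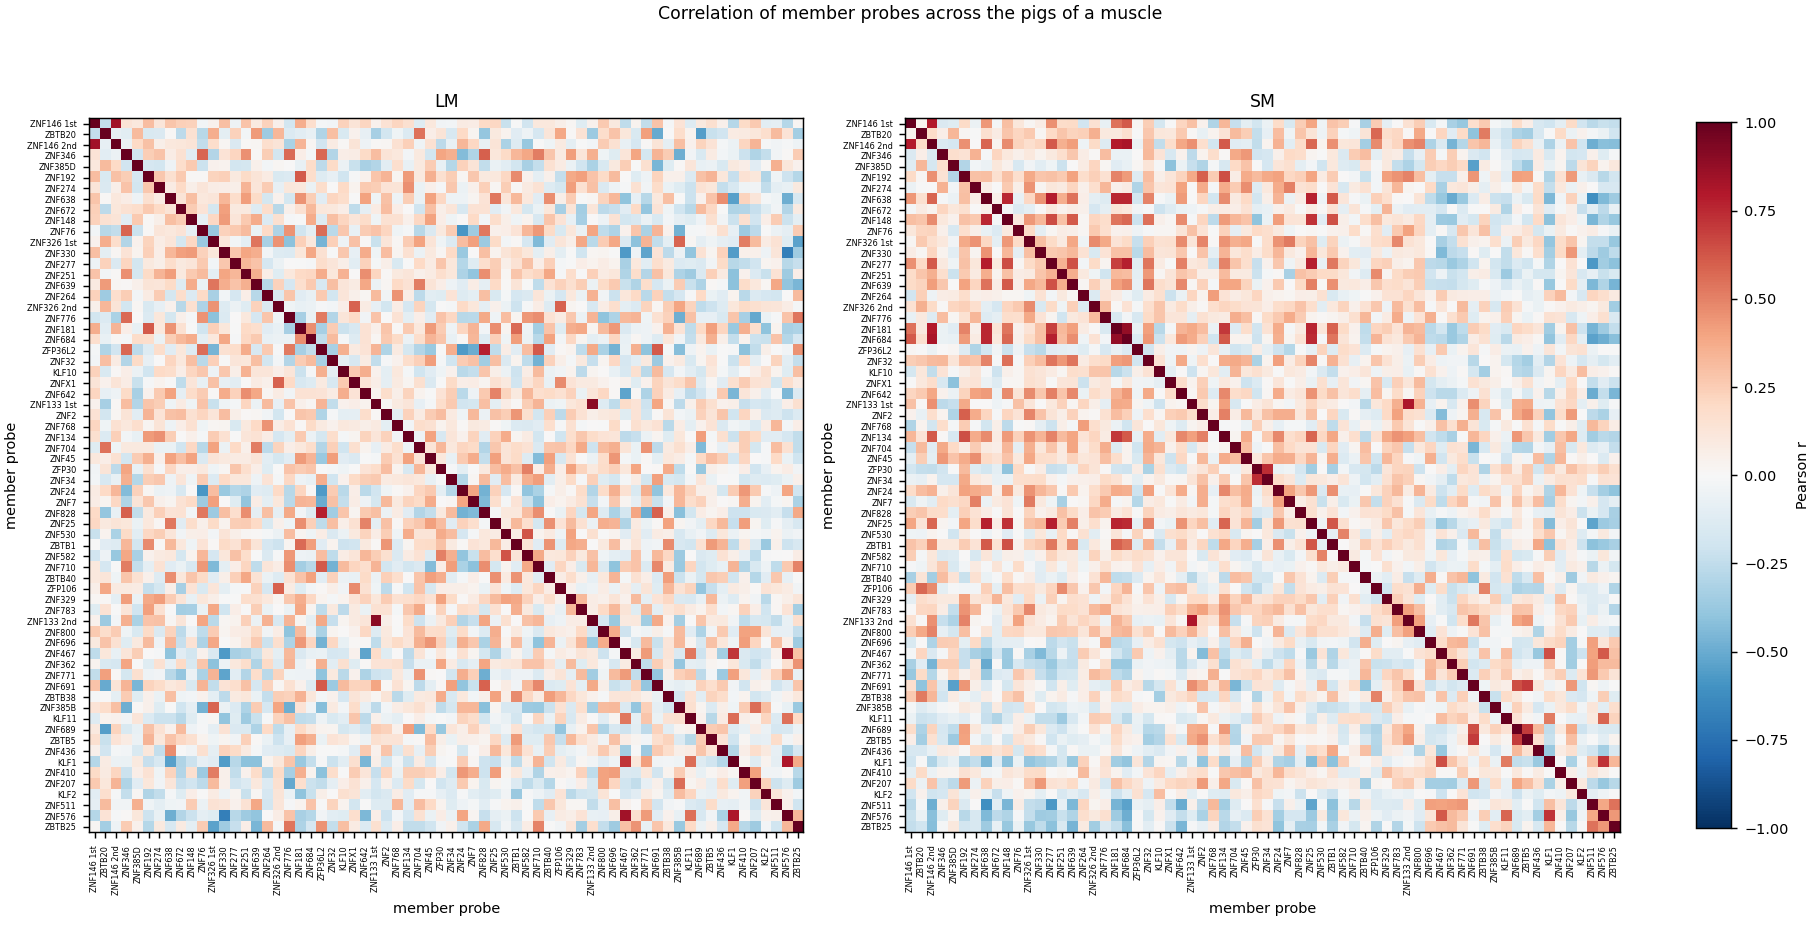
Pearson r between member probes across the pigs of LM (left) and SM (right), with probes in the order of their difference between the muscles. SM shows a block of red crossings (ZNF146, ZNF638, ZNF148, ZNF277, ZNF181, ZNF684, ZNF25) that is much paler in LM, where r of ZNF181 with ZNF684 was 0.47 against 0.88 in SM.

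Zinc finger genes often lie in clusters, and 51 of the 63 symbols were found in the RefSeq gene table of the pig assembly Sscrofa11.1, which served for the order of genes only. ZNF34, ZNF7 and ZNF251 lie in a row with 1 coding gene between neighbours, and all were higher in LM, by 0.36, 0.35 and 0.79. Across pigs ZNF7 and ZNF251 ran against each other, with r = -0.40 in LM and -0.33 in SM. ZBTB25 and ZBTB1, with 1 coding gene between them, were on opposite sides, at -0.83 and 0.30, and r was -0.16 in LM and -0.33 in SM. ZNF768, higher in LM by 0.48, lies between ZNF689 and ZNF771, which were higher in SM, with 2 and 3 coding genes between them. ZNF783 and ZNF467, with 3 coding genes between them, were also on opposite sides. The direction was shared in 2 of these 6 pairs, which had at most 3 coding genes between them. The lists fixed the directions, with 48 of 66 member probes higher in LM, so nothing is read from this count.

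Zinc finger factors outside the ZNF, ZFP, ZBTB and KLF names were counted from a fixed set of 18, of which 14 had a named probe. Of these 8 were called higher in LM and 5 higher in SM, where 35.7% and 47.7% of all probes were. The median difference was 0.20, and -0.07 over all probes, but the names come from lists chosen on the muscle difference and cut in part for SM, so nothing is read from either. With normexp correction IKZF2 turned from 0.19 to -0.056 and ZEB2 from 0.22 to -0.023. SP3, which shares the GC-rich sites of the Krüppel-like factors, was higher in LM by 0.67 ± 0.04 (SE), and CTCF, the insulator protein, by 0.40 ± 0.05. WIZ, a partner of histone methyltransferases, was lower in LM by -0.51 ± 0.03. YY1 differed by 0.00 ± 0.06 and was not called, with 20 dim spots in LM and 43 in SM left out. Its difference was 0.15 with failed spots kept and -0.23 with normexp correction. Of a fixed set of 20 genes, mostly corepressors, 6 had a named probe. Of their 8 probes 5 were higher in LM and 3 higher in SM, with a median of 0.47. WWP1, which is not a corepressor, gave 3 of the 5 probes higher in LM, so nothing about corepressors is read from this count or median. With the C-rich index as a covariate NCOR1, the nuclear receptor corepressor, turned from -0.97 to 1.09, and CTBP2 turned from -0.35 to 0.019. HDAC2, a histone deacetylase, was higher in LM by 0.63 ± 0.03, and WWP1, a ubiquitin ligase known to act on KLF proteins, by 0.45 to 0.83 in 3 probes. CBX5 was lower in LM by -0.32 ± 0.04, whereas the related heterochromatin protein CBX3 was higher by 0.55 ± 0.05 with 23 dim spots in SM, or by 0.11 with normexp correction. TRIM28 had no probe named in the lists at hand. These genes too were named only through lists chosen on the muscle difference.

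Of the fixed fibre markers, TTN, CKM, ACTA1, MYH1 and MB had no dim spot in either muscle, and MYH7 had no named probe. Both tissues are skeletal muscle, so this cannot check which of them is LM or SM. TTN, by 1.18 to 1.38 over its probes, and CKM, by 0.30, were higher in LM. ACTA1 (-0.83 and -0.70), MYH1 (-0.57) and MB (-0.33) were higher in SM. Other cell types were present as well: the adipocyte genes ADIPOQ and PLIN1 were higher in SM, with differences of -1.26 and -1.13, as was the macrophage gene CD14 with -1.13, while CD68 was higher in LM by 0.40. With normexp correction the difference of CD68 was 0.013, and with the C-rich index 0.65. No fibroblast marker had a named probe. The part of these cells in the members' levels was not tested.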

How the data were processed

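Total RNA of each muscle was labelled with Cy3 and hybridised to a single-colour Agilent array of 60-mer probes. Per the file headers, Feature Extraction read each array, and the deposited processed signal is a linear intensity after background subtraction, not normalized between arrays. A further table deposited by the authors covers 6903 probes, holding natural log values of that signal with a constant per array taken off. The tables of the study were used only to name probes; their fold changes and p-values were not used.

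Control spots were left out, log2 was taken and the median of the array over 11000 probes was subtracted. Dim, non-uniform and saturated spots became missing values, and so did 7460 values that lay over 3 SD away from the probe's mean. A probe failing in over 50% of the arrays of LM or SM was dropped, which kept 10987. Muscles were compared with limma 3.58.1 (R 4.3.3, statmod 1.5.0) over all 180 arrays and Benjamini-Hochberg adjustment. This fit took the arrays as independent, so the SEs given leave out their grouping by slide, scan day and pig. The labels do not give the covariates of the study's model (sex, carcass weight and the slaughter and hybridization batches). Correlations used Python 3.11.15, NumPy 2.4.6, pandas 2.3.3 and numba 0.67.0, and figures matplotlib 3.10.9. On simulated data the test of the difference recovered 99.5% of 200 changed probes among 5000, and that of the spread 98.5%. The test of the correlation recovered 98% of 200 among 2000. The simulated noise was independent between arrays, with no slides or scan days, and the planted correlation was stronger than that of any member. These rates therefore do not show how well weaker correlations, or changes beside slide effects, would be found.

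Members, lists and tests were chosen with earlier results of these data known. Every member was named, with full values for the 5 largest differences each way, every KLF and ZBTB, ZFP36L2, genes with over 1 probe, the 3 highest and lowest r between muscles, the 3 largest spread differences each way and the 5 largest dim-spot shares. The pairing of the muscles comes from the pig numbers in the labels, and same-numbered arrays correlated across pigs at a median r of 0.07 over all probes. Precision is limited by how many arrays there are. Alternatives were another centring, quantile normalization, normexp with an offset of 50, failed spots kept, no outlier removal, no dim filter, the deposited table, the C-rich index, and pig, slide or scan day as a block.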

Additional observations from a re-analysis of the deposited data

How the results depend on the processing

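With the pig as a replicate block, for the pairing of the muscles, 9159 probes were called against 9169 without it, the same 48 and 18 members were called on each side, and 20 in place of 19 members were called in spread. With the deposited table, which holds fewer probes, 6027 of 6903 probes were called. Normexp background correction turned the differences of ZNF34 to -0.10, ZNF828 to -0.020 and ZNF329 to -0.058. It left 12 members called in spread (6 wider in SM) and called 4 members alike between the muscles (ZNF7, ZNF576, ZNF691 and ZNF467). In the likeness of the muscles, 1 was called with failed spots kept and 1 with no outlier removal, ZNF7 each time. In both settings the r of ZNF7 was unchanged at 0.35, and its adjusted p in the main permutation test was 0.0538. The alternatives used 10000 permutations, fewer than the main test. The C-rich index turned ZNF467 to 0.32 and left 3 members wider in LM. By the criterion of spots positive and significant over background, 0 in place of 6 members had over 10% failing SM spots. Leaving out the filter on dim probes moved the median of all probes by -0.12 on the log2 scale. The causes were not tested. Among the members all other differences kept their direction under the alternatives run; outside them NCOR1, CTBP2, IKZF2, ZEB2 and YY1 turned under at least 1. The number of members called higher in LM, 48, was 41 with normexp correction, 45 with no filter on dim probes and 44 with the C-rich index. It was 47 with quantile normalization or scan day as a block. The 18 called higher in SM were 14 with the C-rich index and 17 with scan day as a block. Over all probes, in either direction, 9194 of 10964 were called with normexp correction and 11010 of 13541 with no filter on dim probes. The C-rich index gave 8142 of 10987, quantile normalization 9271 of 10985 and scan day as a block 7991 of 10987. The members were chosen on this difference, so how many stayed called is no test of it. Depth is limited by signal over background: members near -3 are close to it, and their SM means leave out the dim spots.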
